A study of Macaca mulatta with 9 samples.

Results

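Cytotoxic granule and death ligand genes encode the proteins with which natural killer (NK) cells and cytotoxic T cells kill other cells. The set taken here holds 10 genes chosen by name: PRF1, GZMB, GZMA, GZMK, GZMM, GNLY, NKG7, CST7, SRGN and FASLG. All 10 were among the 24371 genes of the deposited table, and all 10 were among the 10596 genes tested, which had to reach a deposited per-million value of 1 in at least 3 libraries. Their RNA was described in whole blood of 9 rhesus macaques.

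The study asked what injected extracellular vesicles (EV), the membrane-bound particles that cells release, do in old primates. Of the 9 animals, 3 received EV from antler blastema progenitor cells (Evs-ABPC), 3 received EV labelled FBMSC (Evs-FBMSC, spelled FBMC in the sample descriptions) and 3 received PBS as vehicle (PBS injection). All 9 were labelled wild type, those of PBS injection are described as Old, and the labels state no age, dose, route or time of sampling. Each library came from 1 animal, so the spread within a group is a spread between animals.

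In cytotoxic lymphocytes, perforin and the granzyme proteases are packed on a serglycin scaffold into secretory granules, which are released onto the target cell. Perforin opens the target membrane, granzymes that enter cleave substrates that trigger death, and Fas ligand acts separately, by engaging the Fas receptor on the target surface. In blood, NK cells and effector T cells are the main source of perforin and granzymes, whereas serglycin is also made by neutrophils, monocytes and platelets.

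Erythroid RNA filled most of each library. The erythroid gene list took 71.3 to 82.9% of the deposited per-million values in Evs-ABPC, 82.9 to 88.0% in Evs-FBMSC and 88.7 to 93.1% in PBS injection. The reads recovered from the values outside HBB and HBA numbered 7.47 to 8.65 M, 5.82 to 7.50 M and 3.55 to 5.78 M in the same 3 groups (1 M is 1000000). The deposited values of a library add up to a fixed total, and the median gene was 1.41 higher on the log2 scale in Evs-ABPC than in PBS injection, 0.70 higher in Evs-FBMSC than in PBS injection and 0.71 higher in Evs-ABPC than in Evs-FBMSC. Each member is therefore given as deposited and after median-ratio scaling, which divides a library by the median ratio of its genes to their mean over libraries and brings those medians to 0.0019, 0.018 and -0.020. RNA markers of T cells, NK cells, B cells, monocytes, neutrophils and platelets were present in every group, as the label whole blood implies. In such bulk samples a change in the number of cells of a type and a change in RNA per cell cannot be told apart.

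The members spanned a wide range of levels, which are compared here on the scaled, per-length scale. SRGN was the highest in 9 of 9 libraries, with a median of 499.6 per-million units, and GZMB was second in 9 of 9, with a median of 113. GNLY, NKG7, CST7 and PRF1 followed with medians of 50.2, 49.9, 47.3 and 30.6, and neighbours among these 4 changed places between libraries: GNLY exceeded NKG7 in 6 of 9, NKG7 exceeded CST7 in 6 of 9 and CST7 exceeded PRF1 in 7 of 9. PRF1 exceeded GZMK in 9 of 9 libraries. GZMK, GZMM, GZMA and FASLG formed the low end, with medians of 9.04, 5.57, 3.74 and 1.90, and their order was not the same in every library. Among the granzymes GZMB was thus the highest in 9 of 9 libraries, with a median of 2.02 times the GNLY level of the same library.

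On the deposited scale, all 10 members were called higher in Evs-ABPC than in PBS injection (limma, adjusted p under 0.05), where 90.9% of all genes tested were called higher. In 8 of the 10, each Evs-ABPC library lay above each PBS injection library, against 85.4% of all genes. The members' median log2 fold change was 2.03, beside 1.41 for all genes. PRF1, NKG7, GZMB and CST7 differed most from PBS injection, by 3.38 (SE 0.55), 2.92 (SE 0.50), 2.71 (SE 0.53) and 2.55 (SE 0.47), each with an adjusted p of 0.00042. The call of GZMA ended without Evs-ABPC replicate 1, PBS injection replicate 1 or PBS injection replicate 3, and that of GZMK ended without Evs-ABPC replicate 3 or PBS injection replicate 1. Both calls also ended with no filter on low values, where 8 of the 10 members and 47.9% of all genes were called higher.

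After scaling, 0 of the 10 members passed the test between Evs-ABPC and PBS injection (limma, adjusted p under 0.05; 0.0% of all genes were called in either direction). At an unadjusted p under 0.05, 1 member was higher, PRF1, where 3.08% of all genes were, and limma-voom on recovered reads likewise called 0 members (0.0% of all genes higher), with PRF1 alone under that unadjusted threshold, where 2.42% of all genes were higher. The libraries of 1 member, again PRF1, did not overlap, against 6.45% of all genes that were higher without overlap. The members had 7 fold changes above 0 and 3 below, with a median of 0.40 beside 0.0019 for all genes. That median lay between 0.090 without PBS injection replicate 3 and 0.80 without PBS injection replicate 2, and it was 0.68 without Evs-ABPC replicate 2 and 0.23 without PBS injection replicate 1. With the erythroid genes left out of the total it was 1.02, beside 0.55 for all genes.

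**Figure D1:**
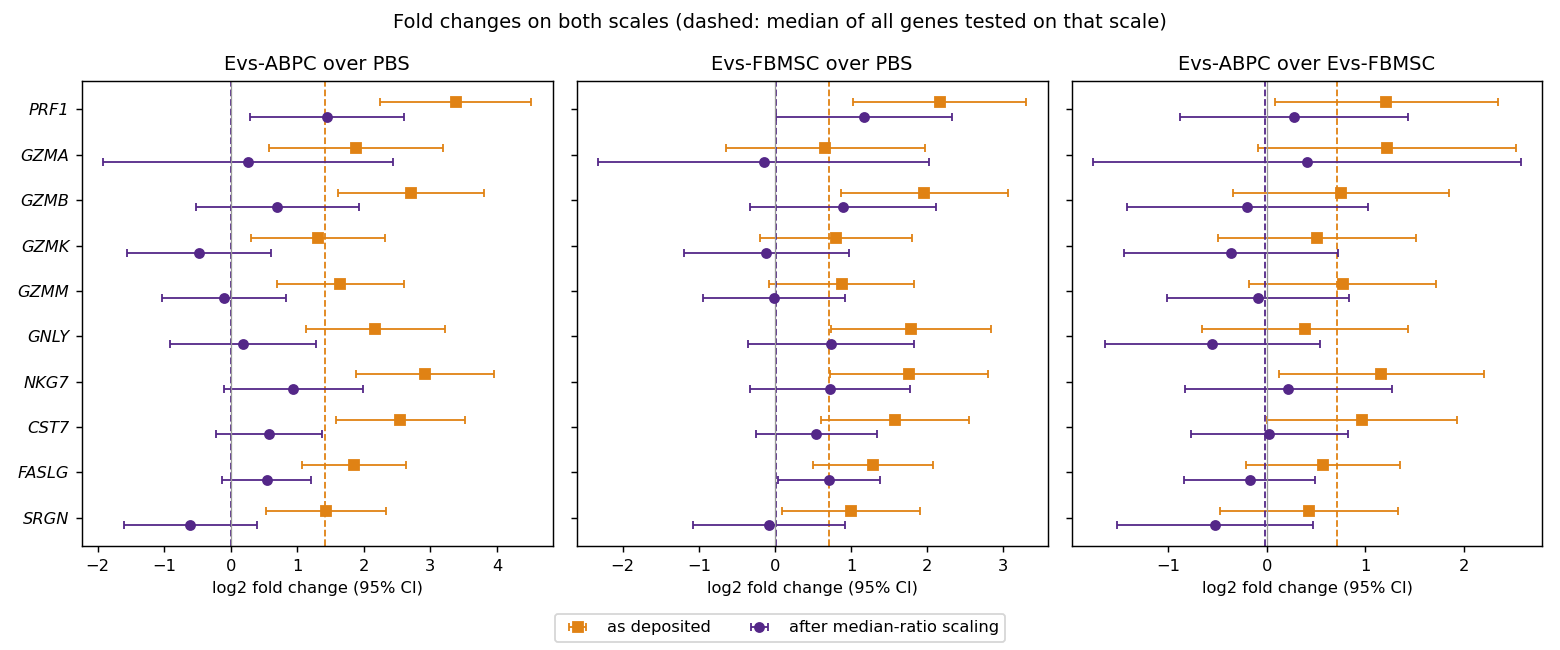
Log2 fold changes of the 10 genes (x axis, log2(value + 1) scale, bars are limma 95% confidence intervals) in the 3 comparisons, as deposited (squares) and after median-ratio scaling (circles); dashed lines mark the median of all genes tested on each scale. The squares of Evs-ABPC over PBS injection run from 1.31 to 3.38 and the circles from -0.61 to 1.44, with PRF1 at the upper end on both scales.

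PRF1 encodes perforin, the pore-forming protein of the granule. As deposited it stood at 72.1, 66.4 and 242 per-million units in Evs-ABPC replicates 1, 2 and 3, at 26.2, 101 and 33.5 in Evs-FBMSC, and at 4.53, 13.7 and 12.1 in PBS injection. After scaling it stood at 47.4, 30.6 and 96.2 in Evs-ABPC, at 26.6, 83.6 and 35.0 in Evs-FBMSC, and at 13.7, 29.1 and 15.8 in PBS injection. The scaled Evs-ABPC libraries all lay above the PBS injection libraries, by a narrow margin between Evs-ABPC replicate 2 and PBS injection replicate 2, and Evs-FBMSC replicate 1 fell below PBS injection replicate 2. The scaled log2 fold change of Evs-ABPC over PBS injection was 1.44 (SE 0.52, 95% confidence interval 0.28 to 2.60), with a p of 0.0199 and an adjusted p of 0.365. It lay between 0.998 and 1.81 when 1 library was left out, lowest without Evs-ABPC replicate 3. PRF1 rested on 263 to 8052 recovered reads per library.

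The granzymes are serine proteases, and GZMB, which cleaves after aspartate and activates caspases, was the most abundant of them. Scaled GZMB was 154, 93.1 and 153 per-million units in Evs-ABPC, 105, 280 and 113 in Evs-FBMSC, and 61.8, 178 and 46.0 in PBS injection. PBS injection replicate 2 exceeded each Evs-ABPC library, and Evs-FBMSC replicate 2 was the highest of the 9. The scaled log2 fold change was 0.70 (SE 0.55, 95% confidence interval -0.53 to 1.92) for Evs-ABPC over PBS injection and 0.89 (SE 0.55, 95% confidence interval -0.33 to 2.12) for Evs-FBMSC over PBS injection, so neither exceeded the spread between animals. With 1 library left out the first lay between 0.31 without PBS injection replicate 3 and 1.27 without PBS injection replicate 2, and the second between 0.44 without Evs-FBMSC replicate 2 and 1.47 without PBS injection replicate 2. The gene next to GZMB in the RefSeq annotation of another rhesus assembly, T2T-MMU8v2.0, is GZMH, a near relative; it was looked at after the values were seen. Scaled GZMH was 87.5, 32.6 and 124 in Evs-ABPC, 29.9, 139.65 and 57.3 in Evs-FBMSC, and 21.2, 77.1 and 20.9 in PBS injection. How reads that match both genes were counted is not given in the sources used here, so the division between GZMB and GZMH is uncertain.

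GZMA, a tryptase that neighbours GZMK in the same annotation, varied more between animals than any other member. Scaled GZMA was 24.1, 3.74 and 3.05 per-million units in Evs-ABPC, 8.13, 8.23 and 1.44 in Evs-FBMSC, and 2.76, 26.7 and 1.70 in PBS injection. A single animal in Evs-ABPC and a single one in PBS injection stood far above the other libraries, and the highest library was 18.5 times the lowest. The standard deviation within groups was 1.49 on the log2 scale, larger than that of 99.8% of the genes tested. Accordingly its scaled log2 fold change had wide limits, 0.26 (95% confidence interval -1.91 to 2.44) for Evs-ABPC over PBS injection, and it changed sign when single libraries were left out.

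GZMK, a tryptase of memory-like T cells, and GZMM, which prefers methionine and is abundant in NK cells, had, with SRGN, the lowest deposited fold changes of Evs-ABPC over PBS injection among the members. Scaled GZMK was 7.60, 6.84 and 9.05 per-million units in Evs-ABPC, 7.28, 13.4 and 11.1 in Evs-FBMSC, and 5.16, 28.5 and 9.04 in PBS injection. Scaled GZMM was 4.80, 4.63 and 12.6 in Evs-ABPC, 4.89, 8.02 and 9.05 in Evs-FBMSC, and 5.57, 12.6 and 5.14 in PBS injection. For both genes the 3 groups overlapped, and PBS injection replicate 2 was the highest of the 9 libraries, for GZMM only just above Evs-ABPC replicate 3. The scaled log2 fold changes of Evs-ABPC over PBS injection were -0.48 (SE 0.49) for GZMK and -0.10 (SE 0.41) for GZMM, and they turned to 0.23 and 0.59 when the erythroid genes were taken out of the total instead, where the median of all genes was 0.55.

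GNLY encodes granulysin, a granule protein that permeabilises microbial membranes. Scaled GNLY was 55.7, 50.2 and 41.2 per-million units in Evs-ABPC, 64.9, 139 and 40.8 in Evs-FBMSC, and 35.6, 79.8 and 27.2 in PBS injection. The Evs-ABPC animals were close together, with a mean of 49.1 ± 7.32 (SD, n = 3), whereas the Evs-FBMSC mean was 81.5 ± 51.1 and the PBS injection mean 47.5 ± 28.3 (SD, n = 3 each). The scaled log2 fold change was 0.19 (SE 0.49) for Evs-ABPC over PBS injection and 0.74 (SE 0.49) for Evs-FBMSC over PBS injection.

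NKG7, a granule membrane protein needed for efficient degranulation, and CST7, which encodes cystatin F, an inhibitor of the cathepsins that process granzymes and perforin, had nearly the same pattern over the animals. Scaled NKG7 was 61.7, 38.0 and 89.2 per-million units in Evs-ABPC, 33.3, 78.8 and 49.9 in Evs-FBMSC, and 27.0, 55.2 and 18.7 in PBS injection. Scaled CST7 was 55.2, 37.9 and 63.7 in Evs-ABPC, 43.6, 60.9 and 47.3 in Evs-FBMSC, and 26.8, 58.9 and 25.1 in PBS injection. In both genes PBS injection replicate 2 stood among the libraries that received EV, while replicates 1 and 3 lay below all of them. For Evs-ABPC over PBS injection the scaled log2 fold change was 0.94 (SE 0.47, 95% confidence interval -0.11 to 1.99) for NKG7, with a p of 0.0733 and an adjusted p of 0.542. It was 0.57 (SE 0.35, 95% confidence interval -0.23 to 1.36) for CST7.

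FASLG encodes Fas ligand, the only member that acts from the cell surface through a death receptor, and was the lowest of the set. As deposited it was 4.36, 3.62 and 9.62 per-million units in Evs-ABPC, 2.84, 6.42 and 1.81 in Evs-FBMSC, and 0.59, 0.66 and 1.10 in PBS injection. Scaled, it was 2.86, 1.67 and 3.82 in Evs-ABPC, 2.88, 5.32 and 1.90 in Evs-FBMSC, and 1.78, 1.40 and 1.44 in PBS injection. Each scaled Evs-FBMSC library lay above each PBS injection library, and Evs-ABPC replicate 2 lay within the PBS injection range. The scaled log2 fold change of Evs-FBMSC over PBS injection was 0.71 (SE 0.30, 95% confidence interval 0.043 to 1.38), with a p of 0.0392 and an adjusted p of 0.998. The PBS injection libraries held 11, 13 and 17 recovered FASLG reads, so counting error is large there, and on the recovered reads the same difference was 1.02 (SE 0.58) with an adjusted p of 0.998.

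SRGN encodes serglycin, the proteoglycan core on which granzymes and perforin are stored, and departed from the other members. Scaled SRGN was 361, 583 and 268 per-million units in Evs-ABPC, 861, 391 and 499.6 in Evs-FBMSC, and 635, 799 and 393 in PBS injection. Within the EV groups it was highest in the animals with the lowest PRF1, Evs-ABPC replicate 2 and Evs-FBMSC replicate 1. In PBS injection, by contrast, replicate 2 had both the highest SRGN and the highest PRF1. The scaled SRGN log2 fold change of Evs-ABPC over PBS injection was -0.61 (SE 0.44, 95% confidence interval -1.60 to 0.39) and turned to 0.17 when the erythroid genes were taken out of the total. CSF3R, the receptor for granulocyte colony-stimulating factor and the marker with the smallest p below 0 in the neutrophil list, was 162, 517 and 166 in Evs-ABPC, 579.6, 226 and 178 in Evs-FBMSC, and 427, 530.35 and 206 in PBS injection. SRGN and CSF3R thus had the same highest animal in each group, as did 4 of the 6 tested neutrophil markers, CSF3R included, while S100A12 and FPR1 shared it in 2 of 3 groups. Genes of other lists did so too, such as CD14 of the monocyte list and TYROBP of the NK cell receptor list. LYZ, also of the monocyte list, did not. How many of all genes had the same highest animals was not computed, and the part of myeloid cells in the SRGN values was not tested.

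**Figure D2:**
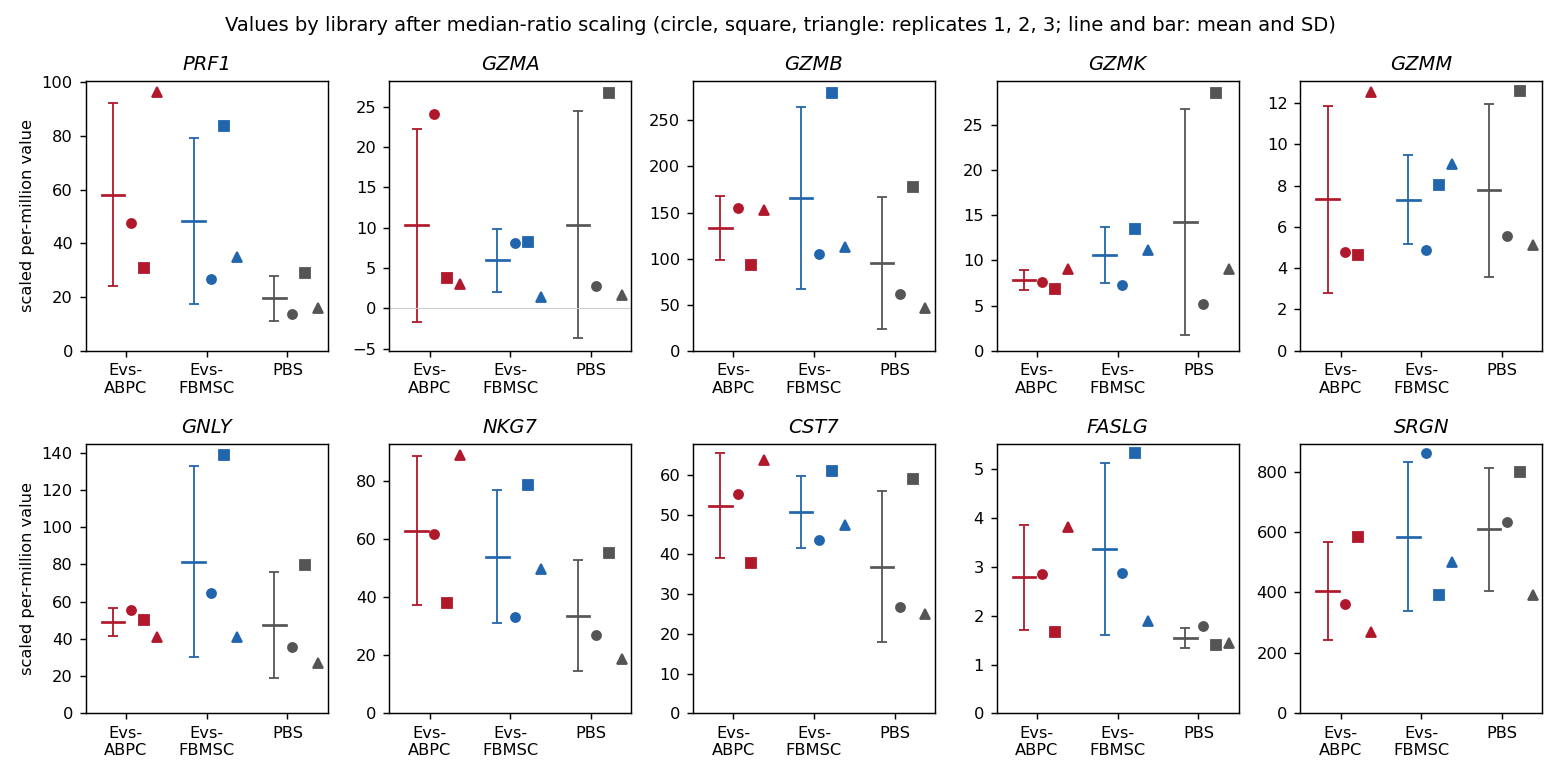
Scaled per-million value (y axis, linear) of each of the 10 genes in every library, by group (x axis); circles, squares and triangles are replicates 1, 2 and 3, and the line and bar give the mean and SD of 3 animals. PRF1 is at least 30.6 in each Evs-ABPC library and at most 29.1 in each PBS injection library, while PBS injection replicate 2 is the highest of its group in 8 of the other members, with FASLG the exception.

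Against PBS injection, the Evs-FBMSC libraries showed smaller differences as deposited. The test called 0 of the 10 members (limma, adjusted p under 0.05), where 0.255% of all genes were called higher. At an unadjusted p under 0.05, 7 members were higher, where 43.6% of all genes were, and 7 members had libraries that did not overlap, against 50.9% of all genes. PRF1 and GZMB were the farthest from PBS injection, with log2 fold changes of 2.16 (SE 0.55, adjusted p 0.0699) and 1.96 (SE 0.53, adjusted p 0.0815). Limma-voom on the recovered reads called 6 members, PRF1, GZMB, GNLY, NKG7, CST7 and FASLG, where it called 31.7% of all genes higher, and the limma count was 0 without Evs-FBMSC replicate 2 or PBS injection replicate 1 and 3 to 6 without any other single library. In those fits limma called 0.537% of all genes higher without Evs-FBMSC replicate 2, 0.123% without PBS injection replicate 1, 43.3% without PBS injection replicate 3 and 0.501 to 6.95% without any other. The members' median was 1.43, beside 0.70 for all genes.

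After scaling, Evs-FBMSC and PBS injection differed in 0 members by limma and 0 by limma-voom at an adjusted p under 0.05, as in 0.0% of all genes in either direction by limma. PRF1 (log2 fold change 1.17, SE 0.52, p 0.0489, adjusted p 0.998) and FASLG were higher at an unadjusted p under 0.05, 2 members where 2.24% of all genes were. FASLG was the 1 member whose libraries did not overlap, against 4.96% of all genes. The members' median was 0.62, beside 0.018 for all genes, and it was 0.33 without Evs-FBMSC replicate 2, 0.36 without PBS injection replicate 3 and 0.96, beside 0.31 for all genes, with the erythroid genes left out of the total. Without Evs-FBMSC replicate 2, the PRF1 difference was 0.69 and the FASLG difference 0.40.

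Between the EV groups, the test called 0 of the 10 members as deposited (limma, adjusted p under 0.05; 0.585% of all genes were called higher in Evs-ABPC). PRF1, NKG7 and CST7 had an unadjusted p under 0.05, 3 members where 48.0% of all genes were higher at that threshold. Limma-voom called 0 members, where it called 1.67% of all genes higher, and PRF1, NKG7, CST7 and GZMA had an unadjusted p under 0.05 there, where 41.0% of all genes were higher. The libraries of 1 member, CST7, did not overlap, against 50.5% of all genes, and without Evs-ABPC replicate 1 or 2 the limma count was 3 or 2, where 45.6% or 4.0% of all genes were called higher. After scaling the count was 0 by both tools, also at the unadjusted threshold, where 1.39% of all genes were higher and 3.97% lower by limma and 1.82% higher and 4.24% lower by limma-voom, and no member's libraries stood apart, against 4.23% higher and 6.8% lower. The scaled log2 fold changes lay between -0.55 (GNLY) and 0.41 (GZMA), with a median of -0.13, which was between -0.29 and 0.15 with 1 library left out, above 0 without Evs-ABPC replicate 2 or Evs-FBMSC replicate 2. The limits for PRF1 were -0.88 to 1.43 and for GZMB -1.42 to 1.03, so differences in either direction lie within both.

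The make-up of the set within a library does not depend on how the library is scaled. SRGN took 46.6, 68.6 and 36.2% of the members' summed per-million values in Evs-ABPC, 74.4, 36.6 and 61.8% in Evs-FBMSC, and 77.9, 63.0 and 72.3% in PBS injection. PRF1 took 6.12, 3.60 and 13.0% in Evs-ABPC, 2.30, 7.83 and 4.32% in Evs-FBMSC, and 1.68, 2.29 and 2.91% in PBS injection. Shares of PRF1 and NKG7 were higher without overlap in Evs-ABPC than in PBS injection, 2 of 10 members, where 2.43% of all genes were when divided by the same sum. Each Evs-ABPC share of PRF1 was above each PBS injection share, with means of 7.58 ± 4.87% and 2.29 ± 0.61% (SD, n = 3 each; two-sided exact permutation p = 0.1). The NKG7 share was likewise 8.17 ± 3.80% in Evs-ABPC and 3.71 ± 0.56% in PBS injection, without overlap (SD, n = 3 each; two-sided exact permutation p = 0.1). A p of 0.1 is the smallest that 3 animals against 3 allow, 30 such comparisons were made, and in Evs-FBMSC against PBS injection or Evs-ABPC against Evs-FBMSC 0 members were without overlap.

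**Figure D3:**
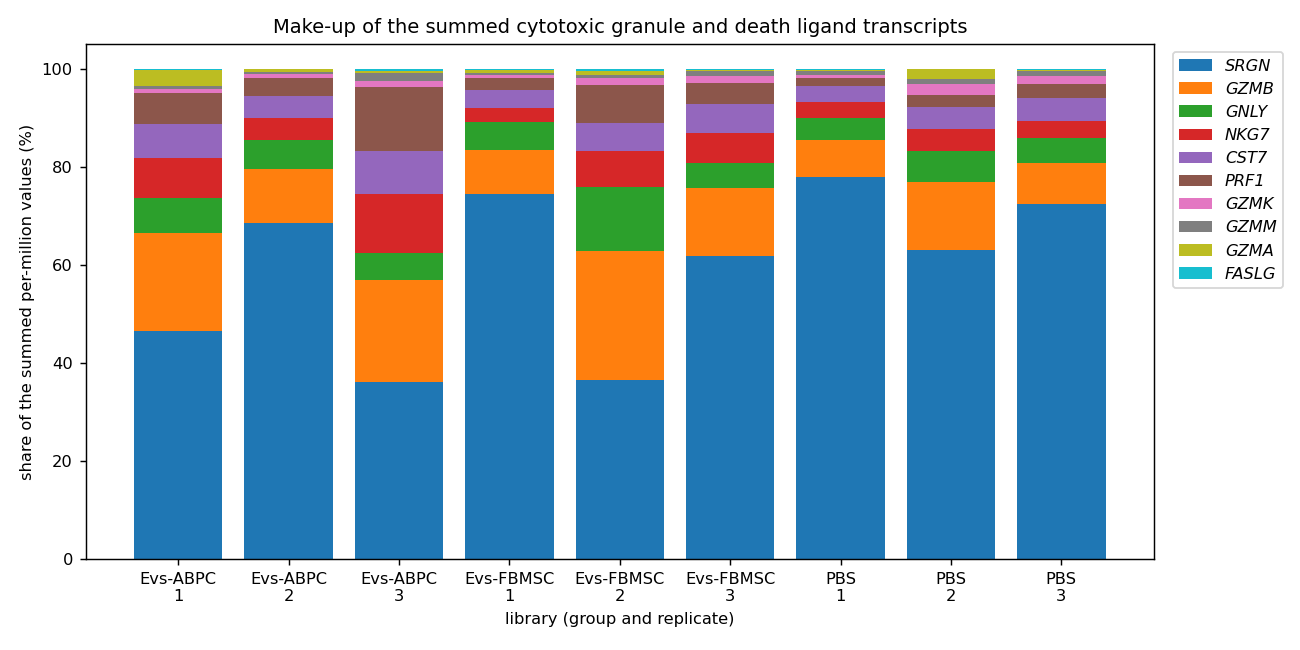
Share of each gene in the summed per-million values of the 10 genes (y axis, percent) in each of the 9 libraries (x axis). SRGN fills 36.2 to 77.9% of the bars, and the PRF1 segment is 3.60 to 13.0% in Evs-ABPC and 1.68 to 2.91% in PBS injection.

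With SRGN left out of the sum, the other 9 genes kept GZMB as their main part. GZMB took 34.9 ± 2.47% in Evs-ABPC, 37.7 ± 3.17% in Evs-FBMSC and 34.3 ± 3.59% in PBS injection (SD, n = 3 each). PRF1 took 14.5 ± 5.16% in Evs-ABPC, 10.9 ± 1.73% in Evs-FBMSC and 8.11 ± 2.20% in PBS injection, again without overlap between Evs-ABPC and PBS injection. The shares of GZMK and GZMM lay below PBS injection without overlap, at 2.11 ± 0.40% in Evs-ABPC against 4.98 ± 1.84% in PBS injection for GZMK, and at 1.85 ± 0.76% against 3.06 ± 0.38% for GZMM (two-sided exact permutation p = 0.1 for each of the 3 genes, n = 3 each). The NKG7 shares then overlapped, at 16.03 ± 2.52% in Evs-ABPC and 13.1 ± 1.71% in PBS injection. Of these 9 genes' sum, PRF1 was a larger part, and GZMK and GZMM a smaller one, in each Evs-ABPC animal than in any PBS injection animal. The GZMM margin was narrow, 2.66% in Evs-ABPC replicate 3 against 2.68% in PBS injection replicate 2. Shares add up to a fixed total, so a larger share of 1 gene lowers the others. How many of all genes stand apart when divided by this sum was not computed, so the 3 genes cannot be set against that share. A p of 0.1 is the smallest in the exact permutation for 3 animals a group.

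Markers of T cells, CD8 T cells and NK cells were then set beside the members in the same library. The summed scaled T cell markers were 141 to 335 in Evs-ABPC, 90.6 to 227 in Evs-FBMSC and 111 to 169 in PBS injection, and the CD8 T cell markers 21.5 to 74.1, 18.3 to 47.6 and 17.7 to 30.3 in the same groups. The summed NK cell receptors were 180 to 226 in Evs-ABPC, 129.7 to 293 in Evs-FBMSC and 127 to 325 in PBS injection. TYROBP, an adaptor that myeloid cells also make, was 74.1, 117 and 66.6 of that sum in Evs-ABPC, 207, 102 and 50.9 in Evs-FBMSC, and 135, 222 and 68.2 in PBS injection. The T cell and NK cell receptor lists together held 26 markers, without the CD8 T cell list, so their sum does not count cytotoxic cells alone. Relative to these 26 T and NK markers, PRF1 was 1.22 higher on the log2 scale in Evs-ABPC and 1.06 higher in Evs-FBMSC than in PBS injection, each without overlap (two-sided exact permutation p = 0.1, n = 3 each). FASLG was 0.85 higher in Evs-FBMSC without overlap, and SRGN was 0.87 lower in Evs-ABPC without overlap (-0.87; two-sided exact permutation p = 0.1 for both, n = 3 each). Against the T cell markers alone the PRF1 difference of Evs-ABPC was 0.88 with overlap, and against the NK receptors alone it was 1.56 without overlap. That of Evs-FBMSC was 1.07 without overlap and 1.12 with overlap in the same order. FASLG in Evs-FBMSC overlapped with PBS injection against either list alone, at 0.87 and 0.92. SRGN in Evs-ABPC was at -1.22 without overlap against the T cell markers and at -0.54 with overlap against the NK receptors. Divided by the same sum of 26 markers, 1.25% of all genes were higher and 10.04% lower without overlap in Evs-ABPC than in PBS injection, and 0.915% were higher in Evs-FBMSC than in PBS injection. Against the T cell markers alone, 18.9% of all genes were lower without overlap in Evs-ABPC and 1.19% higher in Evs-FBMSC than in PBS injection. Against the NK receptors alone, 2.16% were higher without overlap in Evs-ABPC than in PBS injection. The part of cell numbers in the PRF1 values was not tested.

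The genes around the members in the killing pathway were read from lists chosen by function, all after scaling. For Evs-ABPC over PBS injection, 0 genes of any list passed the test (limma, adjusted p under 0.05). The counts at an unadjusted p under 0.05 follow, where 3.08% of all genes were higher. Of 9 other effectors of cytotoxic lymphocytes, 3 were higher at that threshold, 9 had fold changes above 0 and the median was 0.88; CCL3, a chemokine of activated NK and T cells, was at 5.82, 1.08 and 4.79 per-million units in Evs-ABPC, 0.67, 1.10 and 1.06 in Evs-FBMSC, and 0, 0.35 and 0 in PBS injection. Of 11 transcription factors of cytotoxic differentiation, 4 were higher and the median was 0.41; ID2, which NK cell development needs, averaged 17.3 ± 7.19 in Evs-ABPC, 14.7 ± 5.27 in Evs-FBMSC and 7.15 ± 1.46 in PBS injection (SD, n = 3 each; p 0.00992, adjusted p 0.279 for Evs-ABPC over PBS injection). Of 12 NK cell receptors 1 was higher, KLRF1, with 8.80, 1.34 and 15.2 per-million units in Evs-ABPC, 3.07, 3.80 and 5.15 in Evs-FBMSC, and 1.56, 0.93 and 1.33 in PBS injection.

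Granule exocytosis genes encode the machinery that moves granules to the membrane. Of 12 such genes, 0 were higher and 1 was lower in Evs-ABPC than in PBS injection at an unadjusted p under 0.05, where 3.08% of all genes were higher and 7.12% lower, with a median of -0.082. The lower one was VAMP8, a vesicle SNARE, at 16.4 ± 0.92 in Evs-ABPC, 21.1 ± 1.46 in Evs-FBMSC and 27.5 ± 3.14 in PBS injection (SD, n = 3 each; log2 fold change -0.71, adjusted p 0.210 for Evs-ABPC over PBS injection). In Evs-FBMSC over PBS injection, LYST, the lysosomal trafficking regulator, was the 1 of the 12 that was higher (0.75, SE 0.24, adjusted p 0.926). At that unadjusted threshold 2.24% of all genes were higher there. Of 10 genes of granzyme maturation and inhibition 2 were higher in Evs-ABPC than in PBS injection, with CTSL, a cathepsin, at 0.49 (SE 0.18) and the smallest p. SERPINB9, the inhibitor of granzyme B, was 9.42 ± 2.54 in Evs-ABPC and 4.71 ± 0.84 in Evs-FBMSC (SD, n = 3 each; adjusted p 0.747). The death receptor list held Fas and its signalling genes beside other death ligands and receptors, such as TNFSF10 and TNFRSF10A. Of its 14 tested genes, 0 had an unadjusted p under 0.05 in any of the 3 comparisons, and the medians lay between -0.27 and 0.059.

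Markers of the other blood cells were read in the same way. After scaling, 0 of 6 neutrophil, 0 of 7 monocyte, 0 of 6 platelet and 0 of 8 B cell markers had an unadjusted p under 0.05 between Evs-ABPC and PBS injection, while 30 of 38 erythroid markers were lower at that threshold, with a median of -1.43, against 7.12% of all genes lower. All 8 B cell markers had scaled fold changes below 0 there, with a median of -0.58, as had all 6 tested neutrophil markers, with a median of -0.50, beside a median of 0.46 for the 12 T cell markers. The part of the erythroid RNA in the deposited differences of the members was not tested beyond the scaling.

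By likeness of pattern, the members did not all have the same nearest genes, and no grouping of them was tested. Likeness was measured as the root mean square difference between 2 genes' scaled log2 values over the 9 libraries, each gene centred on its own mean. SRGN was nearest to SDCBP (0.071), the syntenin gene, and RGS19 (0.13), and SDCBP was 34.2, 53.9 and 24.1 per-million units in Evs-ABPC, 84.4, 38.2 and 50.6 in Evs-FBMSC, and 63.0, 68.5 and 36.1 in PBS injection. PRF1 was nearest to S1PR5 (0.18), a sphingosine 1-phosphate receptor of NK cells, and RGS9 (0.20), which were also the nearest to NKG7 (0.23 and 0.24). GZMM was nearest to CD3D (0.24), a chain of the T cell receptor complex, and GNLY to CD300H (0.32) and NCR1 (0.33), the NK receptor NKp46. S1PR5 was 6.11, 3.24 and 8.9998 in Evs-ABPC, 2.25, 9.87 and 3.83 in Evs-FBMSC, and 1.34, 3.42 and 1.23 in PBS injection, the order of animals that PRF1 had in the EV groups.

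Among the members themselves, NKG7 and CST7 were the closest pair (0.28), then NKG7 and GZMB (0.30) and NKG7 and PRF1 (0.35). GZMA was the farthest member from 7 of the other 9, at 0.95 to 1.33, and PRF1 and SRGN were 1.26 apart. The nearest genes of GZMB were MATK and JAKMIP1, those of GZMK were ACOT13 and PSMG4, and those of FASLG were RHOBTB3 and ADCY7, at 0.16 to 0.37. The nearest to GZMA were CRISP3 and KLRC3, both at 0.66, the largest distance to a nearest gene in the set.

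**Figure D4:**
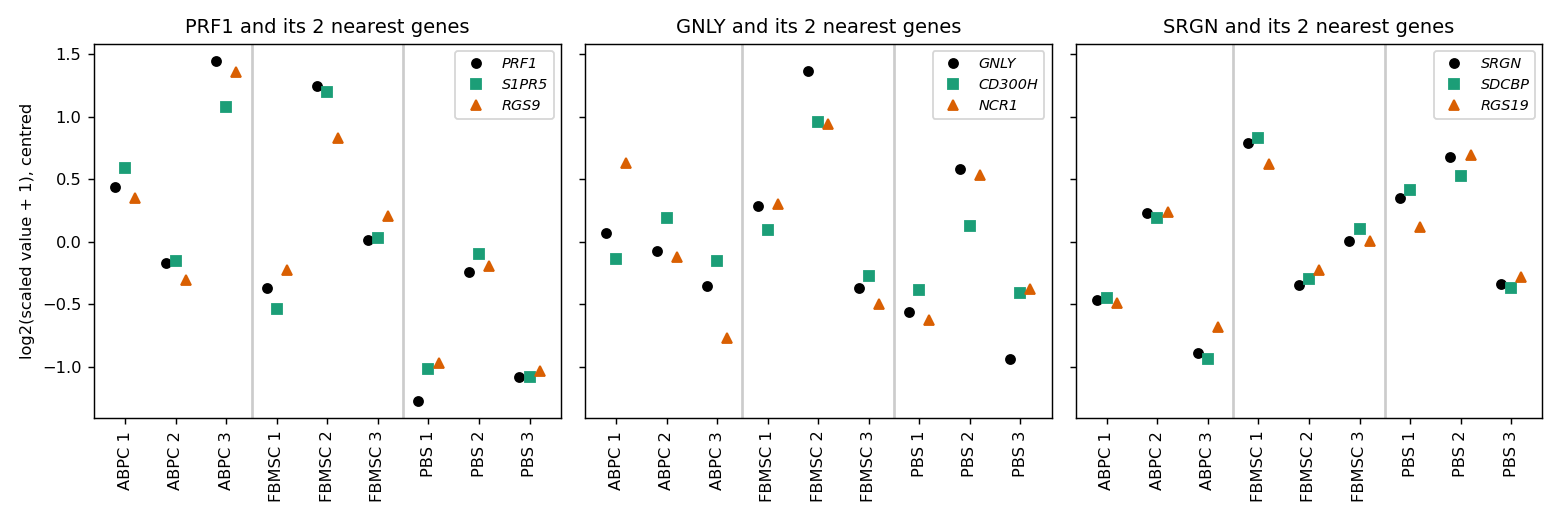
Scaled log2(value + 1) in each library (x axis), centred on the gene's mean (y axis), for PRF1, GNLY and SRGN with the 2 genes nearest to each. PRF1 and S1PR5 are lowest in PBS injection replicates 1 and 3 and high in Evs-ABPC replicate 3 and Evs-FBMSC replicate 2, where SRGN and SDCBP are low.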

How the data were processed

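Whole blood RNA of 9 animals, 3 per group, was measured with NEBNext Ultra libraries and paired-end Illumina sequencing, per the labels' protocols. The genome build was Mmul_10, per the submitters' processing notes; which aligner and counter were used is not given in the sources used here. Log2 values were deposited by the authors for 24371 genes in 9 columns: each is the log2 of a TPM-like per-million value plus 0.5, as checked on the values. The offset bears on low genes, and the fixed total moves all other genes where globin RNA differs. The values were taken back from log2. Whole reads were recovered for 21549 of 21551 genes above 0 in 2 or more libraries (tolerance 0.001); HBB and HBA were not among them.

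Limma 3.58.1 (R 4.3.3) with a trend was fitted on log2(value + 1) of the 10596 genes at 1 or more in 3 or more libraries, all 9 samples in 1 fit with group as the term, as deposited and after median-ratio scaling. Fold changes are on that log2(value + 1) scale, which understates low genes. Benjamini-Hochberg adjustment covered all genes tested, with a threshold of 0.05, and p-values measure the spread between animals. Shares and ratios within a library were compared by two-sided exact permutation over animals, with unadjusted p-values. The fit was first tested on simulated data, with 200 of 10596 genes changed between Evs-ABPC and PBS injection. It recovered 74% of the changes of log2 2, and 6.99% of its calls were false. The changed genes were drawn only from those with a mean log2(value + 1) over 3, which leaves out FASLG. Each member also varied more within groups than at least 74.66% of the genes tested, so the share recovered need not hold for the members. Smaller changes were not simulated, so the share of them that the fit misses is not known. The pairs of libraries shared at most 1.05% equal read numbers, so none was counted as a duplicate.

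The members and lists were chosen with earlier results of these data known. Named genes were every member, in each list the gene with the smallest p in each direction per comparison after scaling, and the 2 genes nearest in pattern to each member; some results under this rule are not reported here. Alternatives changed the pseudocount, filter, scaling, samples in the fit, replicate block, markers, sum and test (limma-voom on recovered reads), and left out each library. Neighbouring genes come from RefSeq's T2T-MMU8v2.0; no sequence or coordinate is given because the builds differ.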

Additional observations from a re-analysis of the deposited data

How the results depend on the processing

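As deposited, the count of members called for Evs-ABPC over PBS injection was 10, where 90.9% of all genes were called higher. It was 8 to 10 with 1 library left out, where 82.5 to 92.0% of all genes were. With no filter on low values it was 8, where 47.9% of all genes were called higher. For Evs-FBMSC over PBS injection the count of 0 became 5 of 8 tested with a value of at least 1 asked of all libraries. It became 6 with only the 2 groups in the fit and 6 on the recovered reads. In these 3 settings 33.1%, 9.95% and 31.7% of all genes were called higher, against 0.255%. With 1 library left out the count was 0 to 6, where 0.123 to 43.3% of all genes were called higher. For Evs-ABPC over Evs-FBMSC it was 0 to 3 with 1 library left out, where 0.416 to 45.6% of all genes were. After scaling the count was 0 in all 3 comparisons under every alternative run. Replicate numbers were not paired in the labels: same-numbered libraries deviated together (correlation over 0.1) in 4 of 9 pairs, between -0.25 and 0.28. In 3 of the 9 pairs the library of the first-named group correlated best with its own number, among the 3 libraries of the other group. With the replicate block the counts of members were 10, 0 and 0 as deposited and 0, 0 and 0 after scaling, while over all genes as deposited the block gave 9682, 44 and 3406 calls, against 9639, 28 and 68 without it.

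Divided by the members' sum, 8.22%, 6.85% and 15.5% of all genes stood apart in either direction in the 3 comparisons. With 1 library of the compared groups left out, 9.87 to 32.3%, 9.45 to 34.2% and 19.4 to 40.3% did. The members whose libraries did not overlap in their share of that sum numbered 2 for Evs-ABPC over PBS injection (2 to 6 with 1 library left out), 0 for Evs-FBMSC over PBS injection (0 to 4) and 0 for Evs-ABPC over Evs-FBMSC (0 to 2). In the ratio to T and NK markers they numbered 2 (2 to 5), 2 (2 to 6) and 0 (0 to 2) in the same order, where 11.3%, 4.12% and 4.21% of all genes stood apart in either direction with all libraries and 12.7 to 32.6%, 6.75 to 16.6% and 6.54 to 25.3% with 1 left out; with T cell markers alone they were 1 for Evs-FBMSC over PBS injection and 1 for Evs-ABPC over Evs-FBMSC, and with NK receptors alone 0 for Evs-FBMSC over PBS injection (3.67%, 3.48% and 1.93% of all genes). For Evs-ABPC over PBS injection, 2 members stood apart with either list alone. With T cell markers alone 19.6% of all genes did, and with NK receptors alone 7.56%. The share count for Evs-ABPC over PBS injection was 6 without Evs-ABPC replicate 2 or PBS injection replicate 2, where 18.5% or 24.0% of all genes stood apart.

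Another scaling turned the sign of several log2 fold changes, none of which passed the test on either scaling. When the erythroid genes were left out of the total, Evs-ABPC over PBS injection gave 0.23 for GZMK, 0.59 for GZMM and 0.17 for SRGN; Evs-FBMSC over PBS injection gave 0.19 for GZMA, 0.27 for GZMK, 0.36 for GZMM and 0.33 for SRGN; Evs-ABPC over Evs-FBMSC gave 0.16 for GZMB, 0.23 for GZMM and 0.11 for FASLG. The medians of all genes were then 0.55, 0.31 and 0.25 in the 3 comparisons, and of the values just given those above that median were GZMM in Evs-ABPC over PBS injection and GZMM and SRGN in Evs-FBMSC over PBS injection. Scaling by the 75th percentile gave GZMM 0.032, 0.011 and 0.021 in the same comparisons, beside 0.11, 0.033 and 0.073 for all genes. The direction of the log2 fold changes of PRF1, GZMB, NKG7, CST7 and FASLG over PBS injection did not change under any alternative, although FASLG has no value where all libraries must reach 1.

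Leaving out 1 library also turned signs after scaling. For Evs-ABPC over PBS injection the ranges were -0.13 to 0.63 for GNLY, -0.58 to 1.32 for GZMA, -0.98 to 0.16 for GZMK and -0.51 to 0.27 for GZMM. For Evs-FBMSC over PBS injection they were -0.79 to 0.91 for GZMA, -0.61 to 0.53 for GZMK, -0.22 to 0.36 for GZMM and -0.41 to 0.17 for SRGN. For Evs-ABPC over Evs-FBMSC they were -0.13 to 0.24 for CST7, -0.43 to 0.13 for FASLG, -0.43 to 0.87 for GZMA, -0.44 to 0.25 for GZMB, -0.50 to 0.13 for GZMM, -0.069 to 0.54 for NKG7 and -0.16 to 0.75 for PRF1, and GNLY as deposited ranged from -0.072 to 0.96. The cause was not tested.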
